A study of Mus musculus with 4 samples.

Results

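The response of STAT3KO mouse embryonic fibroblasts (MEFs) to interferon alpha (IFNa) was read from 2 arrays. One array held RNA of STAT3KO MEFs given IFNa at 1000 U per ml for 2 h, and the other held RNA of STAT3KO MEFs given no IFNa. A probe belonged to the response where its detection score exceeded 0.99 on at least 1 of these arrays. Of 46632 probes on the array, 18223 met this rule: 15397 on both arrays, 699 with IFNa only and 2127 without IFNa only. They stood for 9904 of the 17708 genes that the array's probes name, with 1 probe per gene, the one with the highest mean log2 intensity over all arrays. The response is the log2 intensity with IFNa minus the log2 intensity without it, so a value of 1 is a 2-fold higher intensity with IFNa.

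The series holds 4 samples: STAT3KO MEFs with IFNa, STAT3KO MEFs without IFNa, WT MEFs with IFNa at the same dose and time, and WT MEFs without IFNa. All came from MEF cell lines of the strain C57BL/6, and total RNA was hybridised to Illumina mouse bead arrays. Each of these conditions has 1 array, so no replicate spread is known and no difference below was tested. The labels do not say how many clones or embryos the lines came from, nor how Stat3 was inactivated, so whatever else sets the lines apart cannot be told apart from genotype.

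Interferon alpha binds a receptor of the subunits IFNAR1 and IFNAR2, whose kinases TYK2 and JAK1 phosphorylate STAT proteins. STAT2 and IRF9 act in the complex ISGF3, which binds the interferon-stimulated response element in promoters and switches on genes of antiviral defence. STAT3 is also phosphorylated after type I interferon, binds gamma-activated sites as a dimer, and is best known as the transcription factor downstream of the IL-6 family of cytokines.

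Stat3 itself separated the genotypes on every array. Its brighter probe had log2 intensities of 6.16 with IFNa and 6.56 without it in STAT3KO MEFs, against 11.01 and 10.75 in WT MEFs. The other Stat3 probe read 6.60 and 6.41 in STAT3KO MEFs and 10.48 and 10.46 in WT MEFs in the same order. Both probes counted as detected on all arrays, and which part of the transcript was deleted is not given in the labels, so a remaining signal of this size was not resolved further. Of the 16 fibroblast markers with a probe, 13 were detected in STAT3KO MEFs. Vim, which encodes the filament protein vimentin, read 15.26 with IFNa and 15.11 without it, and Twist1, a mesenchymal transcription factor, read 10.14 and 10.11. Several matrix and receptor genes of fibroblasts were far dimmer than in WT MEFs at either condition. Col1a2, a chain of type I collagen, read 4.87 with IFNa and 5.80 without it in STAT3KO MEFs, against 11.86 and 11.93 in WT MEFs. Dcn, the proteoglycan decorin, read 5.78 and 6.24 in STAT3KO MEFs and 10.90 and 11.20 in WT MEFs. Pdgfra, a growth factor receptor, read 6.53 and 7.06 in STAT3KO MEFs and 10.86 and 10.99 in WT MEFs. The lines therefore differed before treatment in more than Stat3. Among markers of other cells, 4 of 13 macrophage markers, 5 of 14 epithelial, 5 of 11 endothelial, 1 of 10 lymphocyte and 8 of 14 muscle or neural markers with a probe were detected in STAT3KO MEFs.

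After 2 h of IFNa, 135 of the 9904 genes were at least 2-fold higher in STAT3KO MEFs (1.36%) and 81 were at least 2-fold lower (0.818%). Counted by probe, 238 of 18223 were at least 2-fold higher (1.31%) and 171 at least 2-fold lower (0.938%). The higher side was long and the lower side was short. At least 4-fold higher were 52 genes and at least 8-fold higher were 30, whereas the count of genes at least 4-fold lower was 0. The median response of all genes was -0.03, and 95% of genes lay between -0.76 and 0.84. How many genes passed 2-fold turned on the processing: the counts of higher and lower genes were 79 and 5 without background correction, 95 and 6 with an offset of 50, and 120 and 112 with cyclic loess. Scaling each array to its 75th percentile gave 355 and 44, and the authors' own normalized values gave 64 and 3. Here and below, 16 was added to the authors' values before log2, which makes the folds of dim probes smaller. Counts use the measured difference also where one side was undetected. Of the 135 higher genes, 95 were detected on both arrays, and 40 were detected with IFNa only, so that their fold is a lower bound. Of the 81 lower genes, 28 were detected on both and 53 without IFNa only. When every undetected side was set to its bound, 119 genes remained at least 2-fold higher and 33 at least 2-fold lower.

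**Figure D1:**
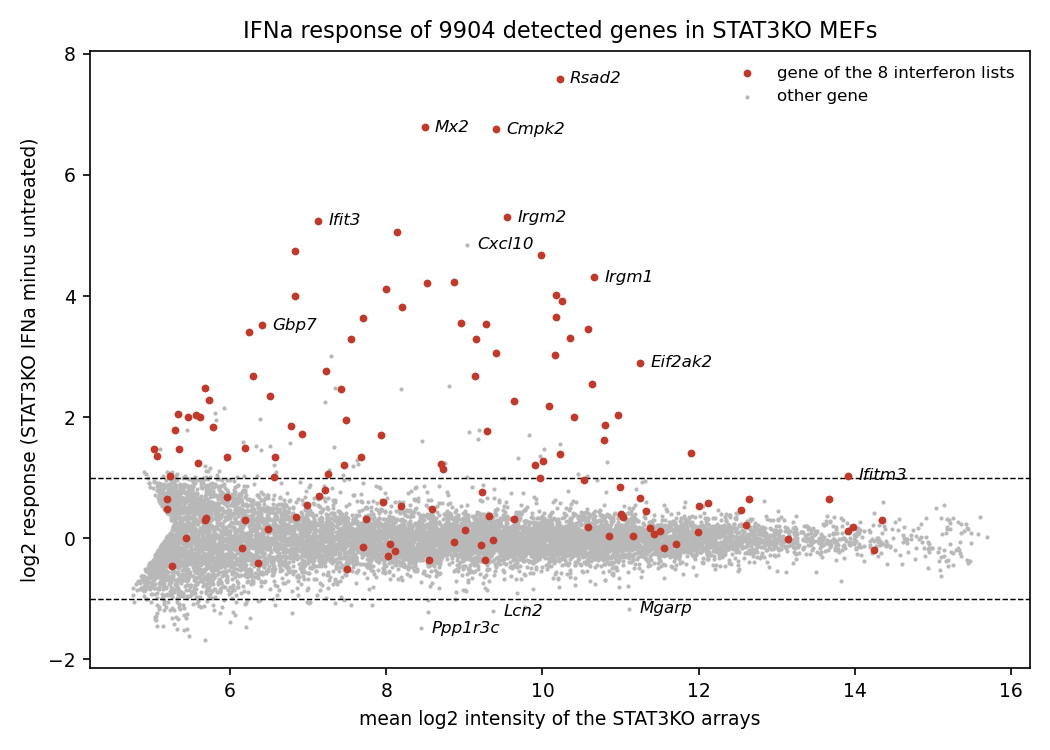
Response of the 9904 genes (vertical axis, log2 intensity with IFNa minus without it, STAT3KO MEFs) against their mean log2 intensity on both STAT3KO arrays (horizontal axis); red points are genes of 8 interferon-response lists, grey points all others, and dashed lines mark 2-fold. The points above 2-fold reach 7.59 for Rsad2 and span the intensity range, whereas most below -1 lie at low intensity.

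The gene with the largest measured response was Rsad2, which encodes viperin, an antiviral enzyme of the endoplasmic reticulum. Its log2 intensity was 14.01 with IFNa and 6.42 without it, a 193-fold difference. Cmpk2, a mitochondrial nucleotide kinase gene next to Rsad2 on the chromosome, came second at 12.78 with IFNa and 6.02 without it, 108-fold. In the authors' normalized values the responses of these genes were smaller, 6.50 for Rsad2 and 5.29 for Cmpk2. The immunity-related GTPase Irgm2 read 12.19 with IFNa and 6.89 without it, 39.5-fold. Cd274, which encodes the inhibitory ligand PD-L1, read 10.66 and 5.60, 33.4-fold. Cxcl10, a chemokine that attracts activated T cells, read 11.46 and 6.61, 28.9-fold. The next of the 15 largest measured responses were Igtp (25.7-fold), Irgm1 (19.8-fold), Helz2 (18.9-fold), Apol9b (18.5-fold), Parp14 (17.3-fold), Samd9l (16.1-fold), Apol9a (15.1-fold), Stat2 (14.03-fold), Clec2d (12.6-fold) and Trim30a (12.4-fold). All 15 exceeded 2-fold under each alternative processing that gave them a value. Apol9a and Apol9b are near-identical copies, so their probes may read each other's transcripts.

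Another group of genes was undetected without IFNa and detected with it. Mx2, a dynamin-like antiviral GTPase, read 11.88 with IFNa against 5.10 (not detected) without it, at least 105-fold higher. Ifit3, a member of the RNA-binding IFIT family, read 9.75 against 4.51, at least 23.9-fold, and its other probe read 8.54 against 4.61. The bounds hold for the background correction used here: in the authors' normalized values the log2 responses were 4.67 for Mx2, 2.85 for Ifit3 and 2.40 for Oasl1. For the 2'-5' oligoadenylate synthetase family genes Oasl1 and Oas1g, the bounds were 16.4-fold and 12.6-fold. Smaller bounds belonged to the GTPase genes Gbp7 (at least 7.97-fold) and Tgtp1 (6.82-fold), the DNA sensor family member Ifi205 (5.51-fold), Mpeg1 (3.53-fold), Trim21 (3.37-fold) and Zbp1 (3.25-fold). In the authors' normalized values the log2 responses were 1.52 for Gbp7, 1.42 for Tgtp1 and 1.05 for Ifi205. With 16 added to those values, Mpeg1, Trim21 and Zbp1 were under 2-fold there, at 0.74, 0.90 and 0.79. Mpeg1, which encodes perforin-2 and serves as a macrophage marker, was the only 1 of the 4 detected macrophage markers past 2-fold. Over these 4, the summed log2 intensity was 27.7 with IFNa and 26.4 without it, and Mpeg1 was the only one of them with a clearly higher value with IFNa. Laptm5, a lysosomal membrane protein gene of blood cells, read 6.53 and 7.29, Cd14 read 7.90 and 8.01, Spi1 read 6.26 and 6.23, and Adgre1, the macrophage surface marker gene, was not detected on either array.

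**Figure D2:**
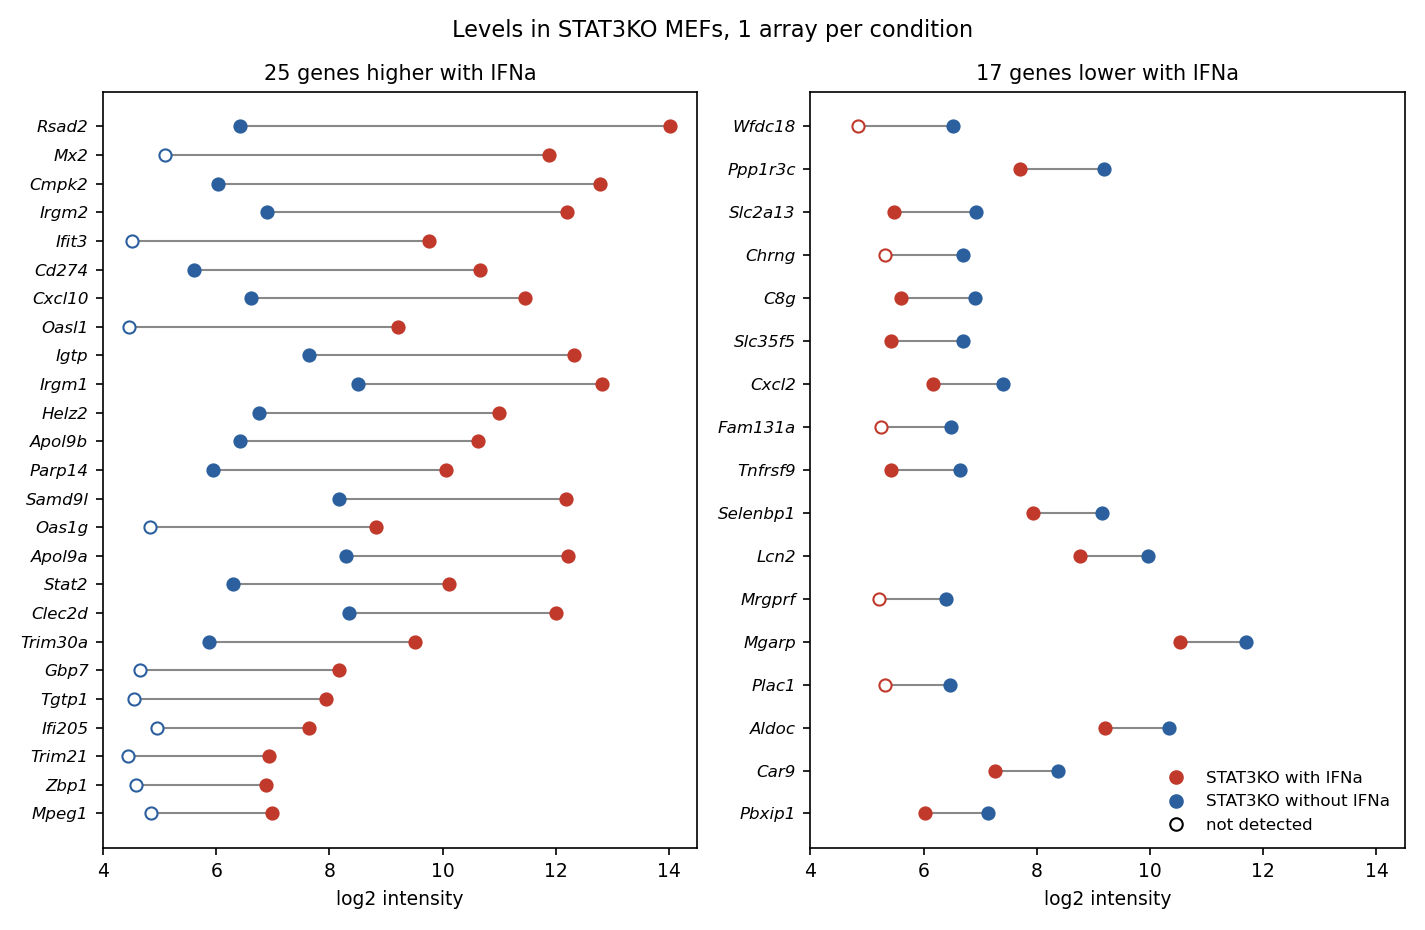
Log2 intensity (horizontal axis) in STAT3KO MEFs with IFNa (red) and without it (blue) for the 25 genes with the largest higher responses, left, and the 17 with the largest lower ones, right; open circles were not detected, and each point is 1 array. Lines are several log2 units long for most genes on the left, against at most 1.68 on the right.

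The promoters of these genes are shown because an element of the kind that ISGF3 binds could be looked for in them. RefSeq promoters of GRCm38.p6, from 250 bases before to 50 bases after the gene start, were matched by symbol for 22 of the 25 named higher genes. The search was for the core of the interferon-stimulated response element, GAAA followed after 2 bases of any kind by GAAA, on either strand, and 16 of the 22 held it. Capitals mark the core or its reverse complement, each line runs 5′ to 3′ on the gene's strand, and the whole promoter is printed for the 4 of these genes with the largest responses among those detected on both arrays.
Rsad2 promoter, chr12:26456403-26456702, minus strand: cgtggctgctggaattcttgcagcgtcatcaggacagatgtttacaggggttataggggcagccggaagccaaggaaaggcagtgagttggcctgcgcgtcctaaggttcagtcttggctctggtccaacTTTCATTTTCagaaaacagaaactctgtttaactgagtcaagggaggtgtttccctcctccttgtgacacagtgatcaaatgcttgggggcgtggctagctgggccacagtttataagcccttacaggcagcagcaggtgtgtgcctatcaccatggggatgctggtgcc
Irgm2 promoter, chr11:58214727-58215026, plus strand: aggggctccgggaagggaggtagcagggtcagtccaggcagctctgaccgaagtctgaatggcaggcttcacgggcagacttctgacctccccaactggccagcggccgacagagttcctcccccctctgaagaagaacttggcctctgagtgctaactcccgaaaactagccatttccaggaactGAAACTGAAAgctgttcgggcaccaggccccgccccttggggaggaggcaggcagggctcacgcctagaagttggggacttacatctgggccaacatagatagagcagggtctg
Cxcl10 promoter, chr5:92348840-92349139, minus strand: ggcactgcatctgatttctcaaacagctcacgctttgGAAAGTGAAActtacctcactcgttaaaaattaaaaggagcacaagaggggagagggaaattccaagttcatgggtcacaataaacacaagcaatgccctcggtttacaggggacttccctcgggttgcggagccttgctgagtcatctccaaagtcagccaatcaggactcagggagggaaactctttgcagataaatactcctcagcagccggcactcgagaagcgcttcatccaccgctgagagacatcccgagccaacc
Igtp promoter, chr11:58199306-58199605, plus strand: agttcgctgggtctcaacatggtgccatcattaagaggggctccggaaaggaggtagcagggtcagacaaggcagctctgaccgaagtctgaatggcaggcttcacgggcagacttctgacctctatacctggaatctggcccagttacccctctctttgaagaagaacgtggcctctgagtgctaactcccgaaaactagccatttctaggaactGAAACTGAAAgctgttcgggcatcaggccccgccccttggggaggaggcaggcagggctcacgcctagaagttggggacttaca
In Rsad2 the core lay on the reverse strand and began at position -120 from the start, and in Cxcl10 it lay forward, at position -213. Irgm2 and Igtp are neighbouring paralogs, and 29 of 30 bases around the core were the same in both.

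For 8 more of the 16 genes, the 30 bases around the first match are enough to compare the elements.
Irgm1, chr11:48871431-48871460, minus strand: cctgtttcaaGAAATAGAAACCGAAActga
Stat2, chr10:128270266-128270295, plus strand: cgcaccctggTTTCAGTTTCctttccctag
Clec2d, chr6:129180416-129180445, plus strand: agagtgtgctGAAAGAGAAAcgaaacacaa
Trim30a, chr7:104465210-104465239, minus strand: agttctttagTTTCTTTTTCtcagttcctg
Ifit3, chr19:34583363-34583392, plus strand: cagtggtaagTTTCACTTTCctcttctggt
Oas1g, chr5:120887612-120887641, minus strand: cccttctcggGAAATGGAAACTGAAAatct
Gbp7, chr3:142530273-142530302, plus strand: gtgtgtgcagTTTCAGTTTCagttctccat
Tgtp1, chr11:48992304-48992333, minus strand: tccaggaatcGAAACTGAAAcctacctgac
Of these, Irgm1, Oas1g and Clec2d carried the forward form together with Tgtp1, and Stat2, Trim30a, Ifit3 and Gbp7 the reverse form. In Irgm1 and Oas1g overlapping cores ran on in a second repeat, which shows as a longer run of capitals. The windows of Apol9a and Apol9b were the same at 30 of 30 bases.

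Over all genes with a promoter in the table, the core was more frequent the larger the response. It was present in 3.99% of all 27025 genes with a promoter and in 296 of the 8080 detected genes that had one (3.66%). Among genes at least 2-fold higher with IFNa it was present in 40 of 117 (34.2%), among those at least 4-fold higher in 23 of 45 (51.1%), and among those at least 8-fold higher in 16 of 27 (59.3%). Of 61 lower genes with a promoter, 0 held it. The 61 matches in the 40 higher genes, counted over every start that RefSeq lists for a gene, had a median position of -55, counted in bases from the start, and 37 began within the 150 bases before it. The core of the gamma-activated site, TTCNNNGAA, reads the same on both strands in its fixed letters. It was present in 9.55% of all genes, 8.47% of detected genes, 23 of 117 higher genes (19.7%) and 3 of 61 lower genes (4.92%). In 10 of the higher genes both cores occurred, and in 3 of these they overlapped. A match is a description of these letters in this window and does not show that a factor was bound.

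Genes were next grouped by role, in lists taken from textbook knowledge of the interferon system. The lists were chosen with earlier results of these data known, so the shares below are a description and no independent support. The 8 lists of interferon-response genes held 133 detected genes, of which 73 passed 2-fold on the higher side and 0 on the lower, against 1.36% and 0.818% over all genes. Their median response was 1.21, or 1.03 with undetected sides at their bounds, and the median of all genes was -0.03. Listed genes made up 54.1% of the 135 higher genes, 44 of the 52 at 4-fold and 28 of the 30 at 8-fold. In the authors' normalized values 48 listed genes were past 2-fold. Part of the 133 listed genes entered the rule only through the IFNa array, which by itself puts them on the higher side. Among genes detected on both arrays, 53 listed genes were at least 2-fold higher, of 95 such higher genes in all.

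**Figure D3:**
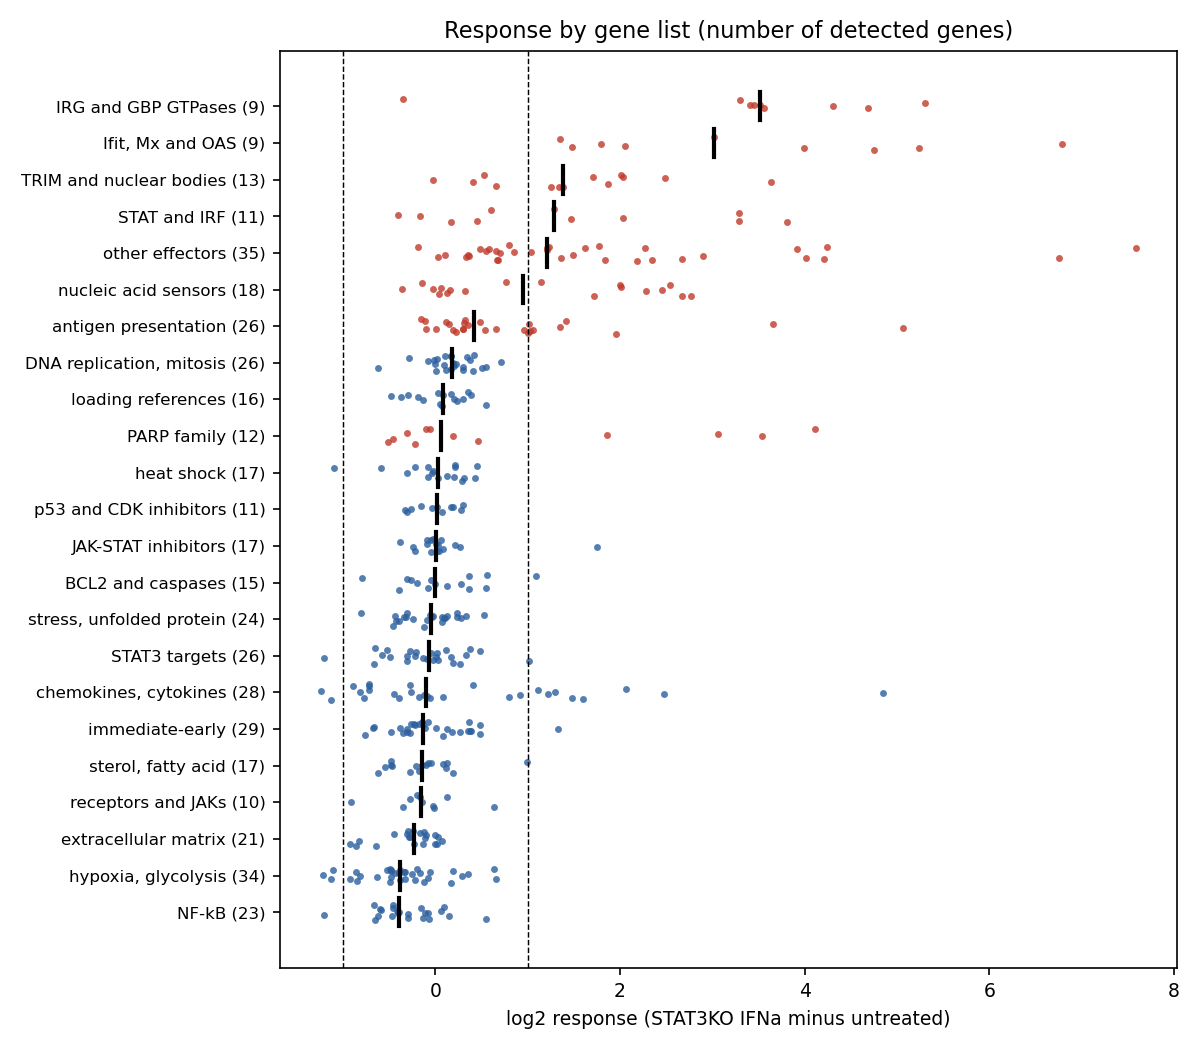
Response (horizontal axis, log2 intensity with IFNa minus without it) of each detected gene of 23 gene lists in STAT3KO MEFs; each point is a gene, the black bar is the list's median, dashed lines mark 2-fold, red lists are the 8 interferon-response lists, and blue lists are the others. Medians run from 3.52 for the IRG and GBP GTPases to -0.40 for the NF-kB list.

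Among the STAT and IRF transcription factors, 6 of 11 detected genes passed 2-fold with higher levels and 0 with lower ones. The genes of the ISGF3 partners STAT2 and IRF9 were both among them: Stat2 read 10.11 with IFNa and 6.30 without it, and Irf9 read 10.79 and 7.50. Irf7, the factor that amplifies production of interferon alpha, read 9.19 and 5.90, a response of 3.28. Irf1, a factor that interferon switches on directly, read 11.99 and 9.95, a response of 2.03, with 1.27 and 1.63 at its other probes. Irf5 had a response of 1.28, and Batf2 was detected with IFNa only, at least 1.5-fold higher. The upstream machinery did not share this shift: of 10 detected receptor and kinase genes, 0 passed 2-fold either way, and the median was -0.15.

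Of 16 IFIT, Mx and OAS genes with a probe, 2 were detected on both arrays, 7 with IFNa only and 7 on neither. The 9 detected genes had measured differences past 2-fold, but 7 of them entered the rule only through the IFNa array, which by itself puts them on the higher side, so their count is no support. Apart from the genes above, these were Ifit2 (11.67 with IFNa, 8.65 without it), Mx1 (6.36 and 4.31), Oas1b (6.19 and 4.39), Oasl2 (6.08 and 4.60) and Oas1c (6.63 and 5.29). Mx1, Oas1b and Oasl2 were undetected without IFNa, and their bounds were at least 2.29-fold, 2.02-fold and 1.87-fold higher. Ifit2 and Oas1c were the genes detected on both arrays.

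Of 35 detected genes in a list of other antiviral effectors, 20 were at least 2-fold higher and 34 were above 0. Of the 35, 3 were detected with IFNa only, which by itself puts them on the higher side. Beside Rsad2 and Cmpk2 at the top, Eif2ak2, which encodes the RNA-activated kinase PKR, read 12.70 with IFNa and 9.80 without it, and Bst2, which encodes the virion tether tetherin, read 10.47 and 7.80. Zc3hav1, an antiviral zinc-finger protein gene, had a response of 2.27, and Adar, the gene of an RNA-editing deaminase, had one of 2.18. Smaller responses came from genes bright and dim without IFNa. Ifitm3, which blocks entry of enveloped viruses, read 14.43 with IFNa and 13.40 without it, a response of 1.03, and Samhd1, a dNTP hydrolase gene, read 10.51 and 9.31. Ifitm1, Isg20, Ifi27, Apobec3 and Xaf1 stayed under 2-fold at 0.65, 0.67, 0.58, 0.70 and 0.68.

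The immunity-related and guanylate-binding GTPases, which act on the vacuoles of intracellular pathogens, had the highest median of any list, 3.52, or 3.45 with bounds. Of 9 detected genes 8 were at least 2-fold higher. Gbp7 and Tgtp1 entered the rule only through the IFNa array, which by itself puts them on the higher side. Irgm1 read 12.82 with IFNa and 8.51 without it, and Igtp read 12.32 and 7.63. Gbp2b read 12.30 and 8.85, Gbp3 read 12.004 and 8.70, and Ifi47 read 10.74 and 7.18. All 5 of these genes were detected without IFNa as well as with it. In WT MEFs, Gbp2b, Gbp7 and Tgtp1 were undetected with and without IFNa.

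Nucleic acid sensors were at least 2-fold higher for 9 of 18 detected genes. Ddx58, which encodes the RNA sensor RIG-I, read 8.65 with IFNa and 6.19 without it, with 8.52 and 5.48 at a second probe. Dhx58, the related helicase LGP2, read 8.61 and 5.84, and Trex1, a DNA exonuclease, read 11.91 and 9.37. Ifih1 (MDA5), Tlr3, Zbp1 and Ifi205 were detected with IFNa only, which by itself puts them on the higher side. Nod1, a sensor of bacterial peptidoglycan, had a response of 1.72, and the adaptor gene Myd88 one of 1.14.

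Within the PARP family the members divided sharply. Parp14 (10.06 with IFNa, 5.94 without it), its neighbours Dtx3l (11.05 and 7.50) and Parp9 (10.94 and 7.88), and Parp12 (7.70 and 5.85) were at least 2-fold higher, and the other 8 detected genes of the list lay within 2-fold, which put the list's median at 0.07. Dtx3l encodes a ubiquitin ligase that works as a partner of PARP9. A second Dtx3l probe, dim on both arrays, read 5.93 and 5.79.

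Of 13 detected TRIM and nuclear-body genes, 9 were at least 2-fold higher. However, 4 of the 13 entered the rule only through the IFNa array, which by itself puts them on the higher side. Among these were Trim21 and Trim12a, under 2-fold in the authors' normalized values at 0.90 and 0.70. Trim30a led with 9.51 with IFNa and 5.88 without it. The nuclear-body components Daxx (11.41 and 9.40), Pml (11.74 and 9.87) and Sp100 (7.25 and 5.90) belonged to the higher genes, as did Trim56 (8.79 and 7.09) and Trim26 (10.91 and 9.53). A dim Pml probe read 5.98 and 5.89, whereas another read 9.62 and 7.46.

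Antigen presentation and immune ligands gave 8 of 26 detected genes at least 2-fold higher, with a median of 0.42. Under the alternatives the count of higher genes ran from 3 to 8. Of the 26, 1 was detected with IFNa only. After Cd274 came Clec2d, which encodes a ligand of an inhibitory receptor of natural killer cells, at 11.997 with IFNa and 8.34 without it. Nlrc5, the transactivator of MHC class I genes, read 8.46 and 6.50, a response of 1.96. The immunoproteasome genes Psmb10, Psmb8 and Psmb9 had responses of 1.41, 1.35 and 1.05. In the authors' normalized values Psmb10 was at 1.46, and Psmb8 and Psmb9 were under 2-fold, at 0.82 and 0.55. The class I light chain B2m, at 0.30, stayed within 2-fold at this time.

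Inhibitors of the JAK-STAT pathway stayed near the median of all genes, with 1 of 17 detected genes at least 2-fold higher. That gene was Socs1, the feedback inhibitor of the JAK kinases, at 9.93 with IFNa and 8.18 without it, and 8.07 and 6.46 at its other probe. Socs3, an inhibitor that acts chiefly on IL-6 family receptors and a known STAT3 target, had a response of -0.09. A list of 26 detected STAT3 target genes had 1 gene past 2-fold in each direction: Gadd45g, a stress-response gene, at 9.54 with IFNa and 8.52 without it, and Lcn2, described below. The list's median was -0.07. Gadd45g was just past 2-fold, at 1.02. The alternatives gave as little as 0.77 for it, with 0.83 in the authors' normalized values.

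Chemokines and cytokines spread both ways. Of 28 detected genes, 8 were at least 2-fold higher and 2 at least 2-fold lower, with a median of -0.10. Of the 28, 3 were detected with IFNa only, which by itself puts them on the higher side. Under the alternatives the count of higher genes ran from 2 to 9. The higher ones, after Cxcl10, were Il15 (8.58 with IFNa, 6.10 without it) and its receptor chain Il15ra (8.27 and 6.98), Tnfsf10 (6.97 and 5.37), which encodes the death ligand TRAIL, Csf1 (10.77 and 9.29), Il18bp (7.17 and 5.95), Il6 (6.84 and, undetected, 4.78) and Il7 (6.25 and, undetected, 5.14). In the authors' normalized values Cxcl10, Il15 and Csf1 were at 3.72, 1.32 and 1.34. Il15ra, Tnfsf10 and Il6 were under 2-fold there, at 0.78, 0.57 and 0.69. The lower ones were the neutrophil chemokine genes Cxcl2 (6.17 with IFNa, 7.41 without it) and Cxcl5 (undetected at 4.53, and 5.66). Cxcl2 was at -0.52 in the authors' normalized values. Within 2-fold, other chemokines lay on both sides. Cxcl1 read 13.46 with IFNa and 14.18 without it, Ccl20 read 8.44 and 9.34, and Ccl5 read 10.26 and 10.97. Cxcl9 read 6.57 with IFNa and 5.76 without it, and Ccl12 read 5.49 and, undetected, 4.57. The NF-kB list had a median of -0.40 over 23 detected genes, 4 of them above 0, with 1 gene past 2-fold (Lcn2). In WT MEFs that list had a median of 0.01 over 21 detected genes.

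Genes listed under hypoxia and glycolysis had 3 of 34 detected genes at least 2-fold lower, 0 higher and a median of -0.39. The 3 were Selenbp1, a selenium-binding protein gene, at 7.92 with IFNa and 9.14 without it (7.46 and 8.59 at a second probe), the glycolytic aldolase gene Aldoc at 9.21 and 10.34, and the carbonic anhydrase gene Car9 at 7.27 and 8.38. A second, dimmer Car9 probe read 6.05 and 6.07. In the authors' normalized values Selenbp1, Aldoc and Car9 were under 2-fold, at -0.89, -0.997 and -0.71. Ndrg1 and Ankrd37, which hypoxia induces, were on the same side within 2-fold, at -0.81 and -0.86. WT MEFs had a similar list median of -0.34 over 33 detected genes, with -0.79 for Ndrg1 and -0.75 for Ankrd37.

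Other lists moved little. Immediate-early genes had 1 of 29 at least 2-fold higher, Zfp36, whose product destabilises cytokine mRNAs, at 10.35 with IFNa and 9.03 without it. Heat-shock genes had 1 of 17 at least 2-fold lower, Dnajb9, a chaperone of the endoplasmic reticulum, at 6.996 and 8.09. BCL2 and caspase genes had 1 of 15 at least 2-fold higher by measured difference, Casp1, undetected without IFNa. Its bound was 1.48-fold, and its log2 response in the authors' normalized values was 0.35. No gene passed 2-fold among 24 stress and unfolded-protein genes, 17 sterol and fatty acid genes, 11 p53 targets and CDK inhibitors, 26 DNA replication and mitosis genes, 21 matrix genes or 16 loading references, where medians ran from -0.23 (matrix) to 0.18 (replication and mitosis).

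Outside the interferon lists lay 62 of the 135 higher genes, 17 of them bright, that is at a mean of 8 or more on the log2 scale. The largest measured one was Cxcl10, given with the cytokines and Il15. Among genes in none of the 29 lists, the largest measured ones were Hap1, the huntingtin-associated protein gene, at 8.79 with IFNa and 5.79 without it; Uba7, the activating enzyme for the ubiquitin-like modifier ISG15, at 10.06 and 7.54; and Ifi211, of the Ifi200 family, at 9.42 and 6.96. Tent5a (8.33 and 6.08), the chemokine receptor-like gene Ccrl2 (7.37 and 5.40) and Inpp1, a phosphatase of inositol phosphates (10.08 and 8.30), followed among those detected on both arrays. These were named because they rank highest among genes in no list. Probes with no gene name in the platform annotation added 58 at least 2-fold higher and 59 at least 2-fold lower. The largest response among them was that of a probe that read 12.53 with IFNa and 6.05 without it.

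Some higher genes sat next to each other on the chromosome. In the RefSeq order of protein-coding genes, 29 of the 130 higher genes with a place in it had another higher gene as direct neighbour, in 13 groups of up to 3, whereas of 80 lower genes 0 did. The groups of 3 were Gm12250, Igtp and Irgm2, then Parp14, Dtx3l and Parp9, and then Gbp7, Gbp3 and Gbp2b. Pairs included Rsad2 and Cmpk2, Ifit2 and Ifit3, Oasl1 and Oasl2, Irf9 and Rnf31, and Psmb8 and Tap2.

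Where a gene past 2-fold had several detected probes, they mostly pointed the same way, although the call itself fixed the direction of 1 of them. Agreement in direction was not counted over all 2893 genes with more than 1 detected probe. Of 27 higher genes with more than 1 such probe, all probes were above 0 in 25 and all were past 2-fold in 17. Of 8 lower genes with more than 1, all probes were below 0 in 8, and all were past 2-fold in 1, Selenbp1.

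The lower genes were mostly dim. Their median of the mean log2 intensity was 5.53, against 7.32 for the higher genes, and 7 of the 81 reached a mean of 8, against 54 of the 135. Below a mean of 6, where 2003 genes lie, 1.95% were at least 2-fold higher and 2.65% at least 2-fold lower. Between 8 and 10 the shares were 1.22% and 0.244% of 2457 genes, and between 10 and 12 they were 1.08% and 0.047% of 2129 genes. The deposited signal was also dimmer with IFNa, with a median of 77.4 against 96.7 without it, and 16096 probes were detected with IFNa against 17524 without it. The part of brightness in the lower genes was not tested.

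**Figure D4:**
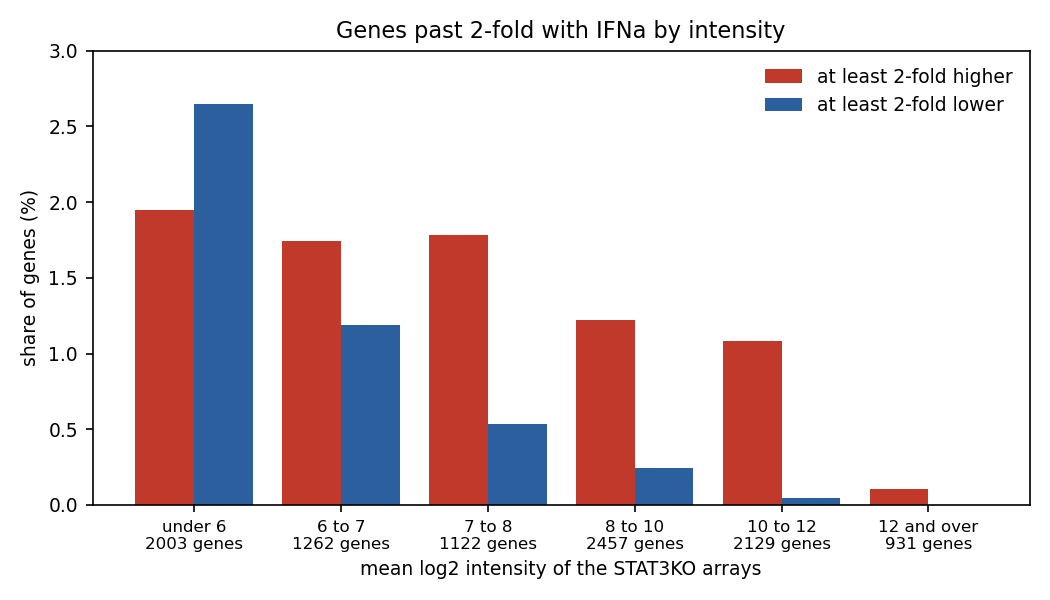
Share of genes (vertical axis, percent) at least 2-fold higher (red) and at least 2-fold lower (blue) with IFNa in STAT3KO MEFs, by the mean log2 intensity of both STAT3KO arrays (horizontal axis, with the number of genes in each band). The blue share falls from 2.65% in the dimmest band to 0 in the brightest, whereas the red share stays above 1% up to a mean of 12.

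The largest measured lower response was that of Ppp1r3c, which targets a phosphatase to glycogen, at 7.70 with IFNa and 9.18 without it, 2.80-fold lower. Lcn2, which encodes the iron-binding protein lipocalin 2, read 8.76 and 9.97, 2.32-fold lower, and Mgarp, a mitochondrial protein gene, read 10.53 and 11.69, 2.24-fold lower. Of 20 named lower genes, these 3 stayed past 2-fold under every alternative that was run, and in the authors' values they were at -1.07, -1.03 and -1.15. The remaining measured ones among the 12 largest, beyond those given by list, were Slc2a13 (-1.46), C8g (-1.32), Slc35f5 (-1.27), Tnfrsf9 (-1.23) and Pbxip1 (-1.11) and Pbxip1 was the brightest of them, at 7.13 without IFNa. Among genes undetected with IFNa, the largest bounds were at least 2.46-fold lower for Chrng, 2.19-fold for Wfdc18, 2.14-fold for Fam131a, 2.11-fold for Plac1 and 2.00-fold for Mrgprf.

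Set beside the response of WT MEFs, which shares no array with it, the response of STAT3KO MEFs counted more genes. In WT MEFs, 97 of 9716 genes were at least 2-fold higher (0.998%) and 32 at least 2-fold lower (0.329%). Of the 135 genes higher in STAT3KO MEFs, 52 were also at least 2-fold higher in WT MEFs, which is 38.5% of the STAT3KO list and 53.6% of the WT list. Of the 81 lower genes, 1 was also at least 2-fold lower in WT MEFs (1.23%), namely Selenbp1. The share in both lists depends on detection: 116 of the 135 higher genes were detected on at least 1 WT array, and 73 on all 4 arrays.

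Among the 89 interferon-list genes detected on all 4 arrays, the median response was 0.65 in STAT3KO MEFs and 0.30 in WT MEFs. The STAT3KO response was the larger one for 65 of them (73.0%), against 3572 of the 8040 other genes on all arrays (44.4%). Their level with IFNa was higher in STAT3KO MEFs for 63 of the 89, and their level without IFNa was lower in STAT3KO MEFs for 41. With 1 array per condition, none of these shares has a test. List by list, over the genes detected on all 4 arrays, the median was the higher one in STAT3KO MEFs for most interferon lists. It was 1.36 in STAT3KO MEFs and 0.62 in WT MEFs for 8 TRIM and nuclear-body genes, 1.12 and 0.50 for 24 other effectors, 0.87 and 0.36 for 8 STAT and IRF genes, and 0.34 and 0.10 for 22 antigen presentation genes. The 3 GTPases measured on all arrays had medians of 3.56 in STAT3KO MEFs and 2.29 in WT MEFs, and of the IFIT, Mx and OAS genes only Ifit2 was. The median was lower in STAT3KO MEFs for 10 PARP genes, at 0.07 against 0.19 in WT MEFs, and for 13 sensors, at 0.15 against 0.30, although 9 of these sensors had the larger response in STAT3KO MEFs.

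**Figure D5:**
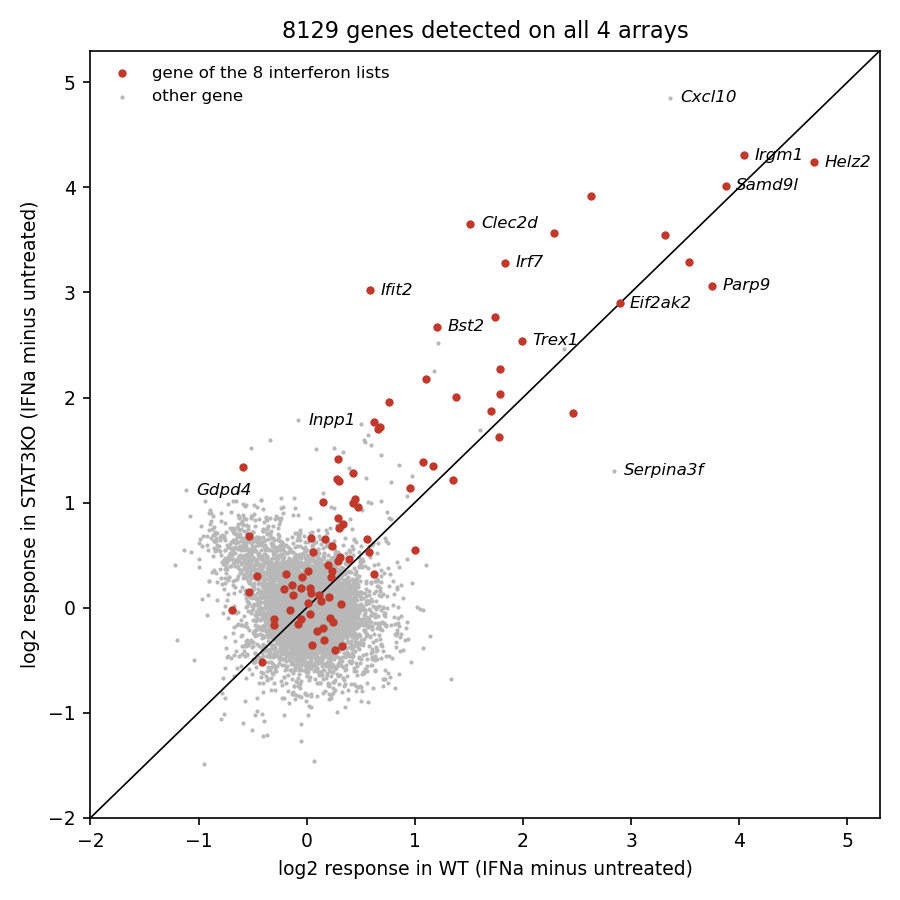
Response in STAT3KO MEFs (vertical axis) against the response in WT MEFs (horizontal axis), both in log2 intensity with IFNa minus without it, for 8129 genes detected on all 4 arrays; red points are genes of the 8 interferon-response lists, grey points all others, and the line marks equal responses. Of the 89 red points, 65 lie above the line.

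Several genes responded by nearly the same amount in both lines. Irgm1 had a response of 4.31 in STAT3KO MEFs and 4.05 in WT MEFs, Samd9l 4.01 and 3.88, Eif2ak2 2.90 and 2.89, and Pml 1.87 and 1.71. Helz2 (4.24 and 4.69), Irf9 (3.29 and 3.54) and Parp9 (3.06 and 3.75) were somewhat lower in STAT3KO MEFs. Ifit2 showed the widest gap among genes detected on all arrays and past 2-fold in STAT3KO MEFs. It read 11.67 with IFNa and 8.65 without it in STAT3KO MEFs, and 10.31 and 9.73 in WT MEFs, so the responses were 3.02 and 0.58. Clec2d likewise read 11.997 and 8.34 in STAT3KO MEFs and 11.02 and 9.51 in WT MEFs. For both genes the level was higher with IFNa and lower without it in STAT3KO MEFs than in WT MEFs.

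Other genes past 2-fold in STAT3KO MEFs lay below 0 in WT MEFs. Inpp1 had 1.79 in STAT3KO MEFs and -0.08 in WT MEFs, Tnfsf10 1.59 and -0.34, Gm12250 1.52 and -0.51, Sp100 1.34 and -0.59, and Spag16 1.01 and -0.94. Gdpd4 was past 2-fold in opposite directions, at 7.82 with IFNa and 6.70 without it in STAT3KO MEFs and 6.97 and 8.08 in WT MEFs. In the authors' normalized values, Tnfsf10, Gm12250, Sp100, Spag16 and Gdpd4 were under 2-fold in STAT3KO MEFs, at 0.57, 0.60, 0.53, 0.35 and 0.59, and Inpp1 was at 1.46. Apart from Inpp1, these genes had a log2 intensity of at most 8.08 on every array. The 2 dimmer arrays by median deposited signal, STAT3KO with IFNa (77.4) and WT without IFNa (75, deposited already normalized), are the ones where Gdpd4, Gm12250, Tnfsf10, Sp100 and Spag16 read higher within their genotype. The part of brightness in these differences was not tested. In the other direction, Serpina3f, a serine protease inhibitor gene, had a response of 1.30 in STAT3KO MEFs (6.60 and 5.30) and 2.84 in WT MEFs (9.77 and 6.93). Cxcl10 reached a lower level with IFNa in STAT3KO MEFs (11.46) than in WT MEFs (12.18) but began lower (6.61 against 8.82), so that its response was 4.85 and 3.36.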

How the data were processed

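Total RNA of 4 samples, 1 per condition, was labelled with biotin and hybridised to Illumina mouse bead arrays. BeadStudio 3.2.3 is named in the submitters' processing notes. The deposited table gives a linear intensity and a detection score (a fraction from 0 to 1) per probe and array, per the file headers. The intensity of the WT untreated array was deposited already normalized, per the file headers, and equalled the authors' normalized intensity (largest difference 0). How the authors normalized is not given in these sources.

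In R 4.3.3 with limma 3.58.1, normexp removed background from the intensities (detection p taken as 1 minus the score, offset 16), and they were quantile-normalized over the 4 arrays and taken to log2. The steps were tested on simulated data. The authors' normalized values were taken to log2 after adding 16 to each. Of 46632 probes, 29976 had 1 gene symbol in the platform annotation, 10 several and 16646 none. Symbols were updated through RefSeq (GRCm38.p6) by Entrez ID for 29921 and by accession for 12, and 43 kept the platform's.

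With 1 array per condition there was no test, no p and no error, so the small number of arrays sets the precision. Calls are at 2-fold. A fold against an undetected side uses the higher of the probe's own value there and the lowest detected value on that array. Named genes were Stat3, the 15 largest measured higher and 12 largest measured lower responses, the 10 and 5 largest bounds, the 8 largest differences from WT each way, any gene past 2-fold in opposite directions, and up to 6 genes per list. The members, the 29 gene lists and the rule were chosen with earlier results of these data known. Alternatives changed background, offset, normalization, source of values, detection, brightness and probe choice.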

Additional observations from a re-analysis of the deposited data

Results flagged for a closer look

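Gdpd4, a glycerophosphodiester phosphodiesterase family gene, was the only gene detected on all 4 arrays whose IFNa response was past 2-fold in opposite directions in the 2 genotypes. Its log2 response was 1.12 in STAT3KO MEFs and -1.12 in WT MEFs, each from 1 array against 1 array, and the difference was not tested. In the authors' normalized values its STAT3KO response was 0.59.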

How the results depend on the processing

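No paired analysis was possible because each group has 1 array. Under 11 alternatives, 1 of them (undetected sides at their bounds) added after seeing the data, the counts moved as follows, and where a cause is not plain from the alternative the cause was not tested. Probes at least 2-fold higher were 238, and 123 without background correction, 150 with offset 50, 681 with 75th percentile scaling, 92 in the authors' values, 152 detected on both arrays and 75 at a mean log2 intensity of at least 8. Probes lower were 171, and 5, 9, 73, 3, 48 and 9 in that order, and 261 with cyclic loess. Genes higher were 135, and 79 without background correction, 355 with 75th percentile scaling, 64 in the authors' values and 54 at a mean of at least 8. Genes lower were 81, and 5, 6, 44, 3, 28 and 7 in the probes' order, and 33 at their bounds. Interferon-list genes higher were 73, and 48 in the authors' values and 37 at a mean of at least 8. Genes higher in STAT3KO and WT were 52, and 32 in the authors' values, 30 detected on both arrays and 19 at a mean of at least 8. Genes lower in both were 1, and 2 with cyclic loess or quantile normalization of the STAT3KO arrays alone, and 0 without background correction, with offset 50, in the authors' values, detected on both arrays, at a mean of at least 8 or over the mean of all probes. The response element core stood in 34.2% of higher genes and in 51.1% past 4-fold. Of 64 named genes past 2-fold higher, 44 stayed so under every alternative run for them, and of 20 lower ones, 3 did; 0 reversed. Scaling to the 75th percentile moved the median of all genes to -0.15, against -0.03. Signal over background limits the dim probes: 53 of the 81 lower genes and 40 of the 135 higher ones were undetected on 1 of the arrays.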
